A study of Mus musculus with 4 samples.

Results

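Heat shock chaperones were followed across the cell classes and drug groups of a mouse crescentic glomerulonephritis experiment. The members were picked by gene symbol, and the set holds 10 of the 16706 genes in the deposited matrix. The members are Hspa1a, Hspa1b, Dnajb1, Hsph1, Hspa8, Hsp90aa1, Hsp90ab1, Hspb1, Hspd1 and Hspe1, and all 10 were found. The working name for the set is cytosolic heat shock chaperones. That name does not cover Hspd1 and Hspe1, which encode the chaperonin and co-chaperonin of the mitochondrial matrix and are treated separately here. UMIs (unique molecular identifiers, counted once per captured RNA molecule) of each member were summed by cell class and library and scaled to the total UMIs of that class and library (CPM).

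The cells were total kidney cells of male C57Bl/6 mice aged 9 weeks with the genotype Pax2.rtTA;TetO.Cre;R26.Confetti, an inducible Pax2-driven Cre with a multicolour reporter, which every group carried. Every group also received anti-GBM serum (PTX-001), directed against the glomerular basement membrane, so there is no group without disease. Dosing began on day 1 with distilled water (the vehicle), panobinostat (15 mg/kg), givinostat (10 mg/kg) or ruxolitinib (60 mg/kg), and animals were killed on day 7. Panobinostat and givinostat inhibit histone deacetylases and ruxolitinib inhibits Janus kinases. Each group had 2 animals and gave 1 library, and the labels do not say whether both animals entered it. There is therefore no replicate, no test and no p-value. Ranges in square brackets are exact 95% intervals that cover counting error only, and every drug ratio uses the same vehicle library.

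Heat shock proteins bind unfolded or partly folded proteins and help them fold, avoid aggregation or reach degradation. The HSP70 proteins do this in cycles driven by J-domain partners and nucleotide exchange factors, and HSP90 acts later on signalling proteins such as kinases and steroid receptors. A few members are nearly silent until heat shock factor 1 binds heat shock elements in their promoters, whereas others are abundant in every cell. In kidney, inducible HSP70 and HSPB1 are known to respond to ischaemia, toxins and hyperosmolality.

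The 4 libraries held 3930, 4396, 3472 and 3979 kept cells (vehicle, panobinostat, givinostat and ruxolitinib, the order used throughout) with median depths of 7957.5, 6568.5, 10020.5 and 8370 UMIs per cell. Of 32 clusters, 31 were named from marker genes and are called X-like. There were 8 classes with at least 50 cells in every library, namely macrophage-like, monocyte-like, dendritic-like, T-like, natural killer-like, proximal tubule-like, loop of Henle-like and distal convoluted tubule-like cells. Orders and ranges over classes cover these 8 unless another class is named. The sums rested on 60 cells (distal convoluted tubule-like, givinostat) to 2524 cells (proximal tubule-like, panobinostat). There were 20 barcodes found in more than 1 library. The libraries also differed in Tpm3-rs7, at 4.14 CPM with vehicle, 3.96 with panobinostat and 53.8 with both givinostat and ruxolitinib, and the part of such a difference in the members was not tested.

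The promoters are shown first because the inducible members are defined by how they are switched on. The heat shock element is a run of GAA units in alternating orientation. RefSeq promoter windows (GRCm38.p6, 250 bases before to 50 after the start) were at hand for 7 of the 10 members. In the stretches below, given 5′ to 3′ on the strand of the gene, capitals mark matches to GAANNTTC or TTCNNGAA and to their 3-unit extensions. Hspa1a and Hspa1b lie on the minus strand of chromosome 17, and their stretches are chr17:34972157-34972306 and chr17:34959239-34959388. The Hspb1 stretch is chr5:135887779-135887858 on the plus strand. The last stretch, chr1:55088053-55088082 on the plus strand, lies between the RefSeq starts of the divergent genes Hspe1 and Hspd1. In GENCODE these genes overlap, and the stretch lies inside a 5′ exon of 1 annotated Hspd1 transcript.
Hspa1a: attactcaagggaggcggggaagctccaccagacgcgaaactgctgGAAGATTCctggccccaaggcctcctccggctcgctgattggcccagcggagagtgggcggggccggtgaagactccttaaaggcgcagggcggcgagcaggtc
Hspa1b: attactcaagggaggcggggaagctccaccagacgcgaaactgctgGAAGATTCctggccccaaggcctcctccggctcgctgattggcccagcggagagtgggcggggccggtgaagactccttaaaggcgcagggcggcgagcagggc
Hspb1: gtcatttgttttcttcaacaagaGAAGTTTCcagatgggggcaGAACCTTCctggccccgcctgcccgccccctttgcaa
Hspe1 and Hspd1: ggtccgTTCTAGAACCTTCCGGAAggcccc

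Hspa1a and Hspa1b shared 149 of these 150 bases and 247 of the 250 bases before the start, including a GAANNTTC match whose first base lies 104 bases before the start. Hspb1 had 2 matches, at 117 and 97 bases before its start. The stretch between the RefSeq starts of Hspe1 and Hspd1 held both 3-unit forms, GAANNTTCNNGAA and TTCNNGAANNTTC, in overlap. Hsph1, which encodes an HSP110 nucleotide exchange factor, also held TTCNNGAANNTTC, but just after its start. It had a TTCNNGAA match before its start too, by 33 or 54 bases depending on the window. Dnajb1 held none of the 4 forms. Across all 32851 windows GAANNTTC occurred in 7.86% and TTCNNGAA in 8.52%, while the 3-unit forms occurred in 0.310% and 0.320%. A match is a description of letters and not a measured binding site. Although the promoters are almost alike, the transcripts of Hspa1a and Hspa1b can be told apart by 3′ reads: in their last 500 bases no window of 91 bases occurs in the other transcript.

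Hspa8, Hsp90aa1 and Hsp90ab1 were high in each of the 8 cell classes and differed at most 2.05-fold between them in the vehicle library. Hspa1a and Hspa1b differed 18.9-fold and 9.10-fold, and Hspd1 and Hspe1 were highest in proximal tubule-like cells. The heat map of member levels shows these patterns in all 4 libraries.

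**Figure D1:**
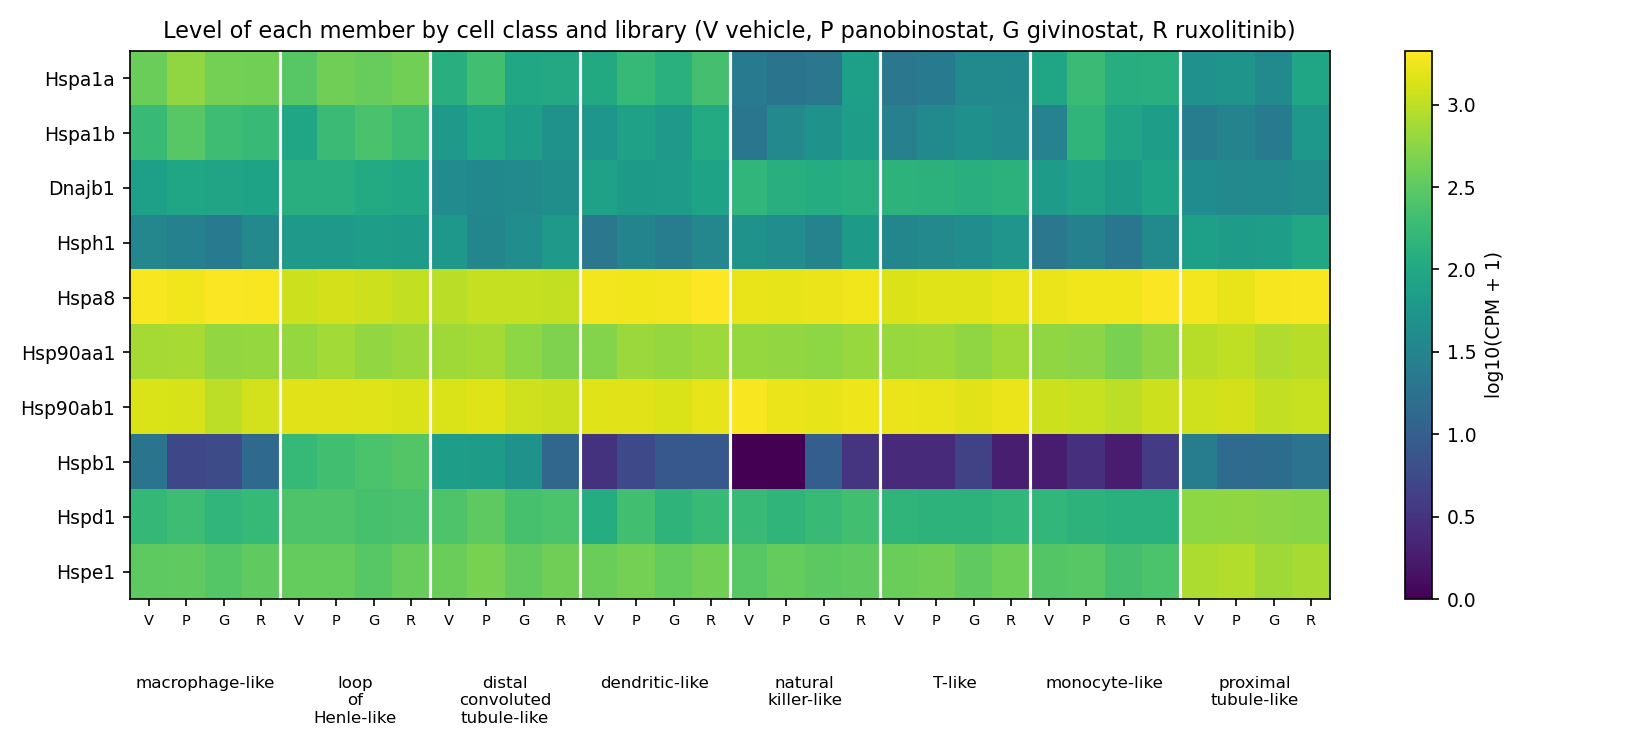
Level of each of the 10 members as log10(CPM + 1), by cell class and library (columns grouped by class, V vehicle, P panobinostat, G givinostat, R ruxolitinib). Hspa8 and Hsp90ab1 are bright in every column, Hspb1 is bright in loop of Henle-like cells (170 to 275 CPM) and dark in lymphoid and monocyte-like cells, and Hspd1 and Hspe1 are brightest in proximal tubule-like cells.

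Hspa1a (ENSMUSG00000091971.3, chr17:34969190-34972156) and Hspa1b (ENSMUSG00000090877.3, chr17:34956436-34959238) encode the stress-inducible HSP70. Their summed level in the vehicle library ran from 41.7 CPM in natural killer-like cells to 556 CPM in macrophage-like cells, a 13.3-fold range. Hspa1a alone spanned 20.02 CPM in T-like to 379 CPM in macrophage-like cells and Hspa1b 19.5 CPM in natural killer-like to 177 CPM in macrophage-like cells. Loop of Henle-like cells came next, at 377 CPM for the sum. In the vehicle library Hspa1b gave 31.8% of the pair's UMIs in macrophage-like cells, 34.4% in proximal tubule-like cells and 57.3% in T-like cells. The T-like share was also above 50% in the panobinostat, givinostat and ruxolitinib libraries (62.0%, 55.6% and 50.8%).

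The summed inducible members (Hspa1a, Hspa1b, Dnajb1 and Hsph1) stood at 663, 1005, 725 and 711 CPM in macrophage-like cells and at 563, 771, 775 and 769 CPM in loop of Henle-like cells. These were the 2 highest of the 8 classes in every library. Endothelial-like cells, with 42 to 67 cells per library, held 631, 810, 808 and 1027 CPM, above loop of Henle-like cells in every library. Macrophage-like cells were first with vehicle and panobinostat and loop of Henle-like cells with givinostat and ruxolitinib, where the intervals overlapped. The next classes were much lower and lay close together. In the vehicle library, distal convoluted tubule-like (281), dendritic-like (258), natural killer-like (245), T-like (219), monocyte-like (207) and proximal tubule-like cells (187 CPM) each overlapped their neighbour in the order. Free RNA from broken proximal tubule cells was gauged by Gpx3, a gene of that segment. In the other 7 classes Gpx3 reached 3.50% to 25.5% of its tubule level, and that share of the tubule's inducible sum would give at most 55.4 CPM.

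**Figure D2:**
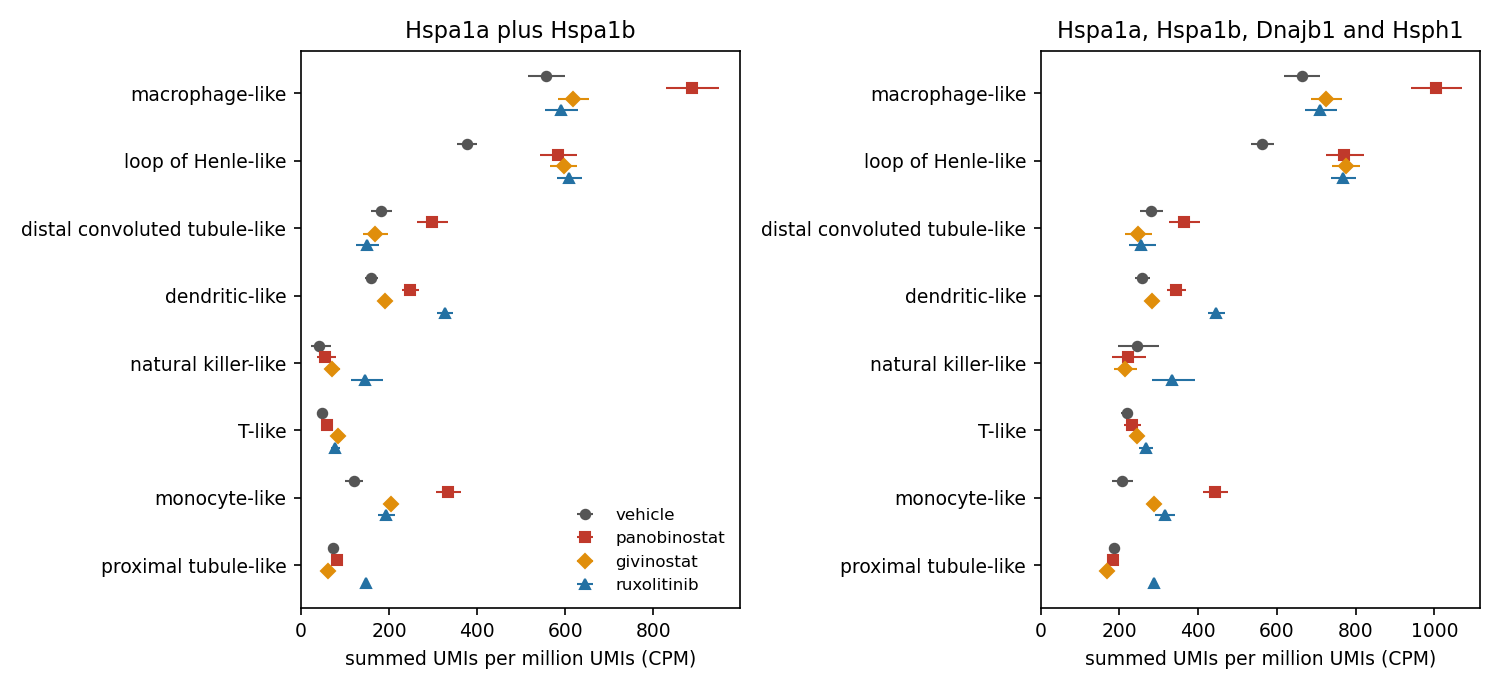
Level (CPM) of Hspa1a plus Hspa1b (left) and of all 4 inducible members (right) in 8 cell classes, ordered by the vehicle value. Points are single libraries and bars exact 95% Poisson intervals, which cover counting error only; macrophage-like and loop of Henle-like cells lie above the other classes in all 4 libraries.

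Dnajb1 (chr8:83608193-83612653), a J-domain partner that feeds clients to HSP70, had another order. Among the 8 classes of the vehicle library it was highest in natural killer-like cells, at 153 CPM, and lowest in distal convoluted tubule-like and proximal tubule-like cells at 39.1 and 40.7 CPM. Intercalated-like cells (50 cells) and endothelial-like cells (48 cells) stood higher in that library, at 196 and 173 CPM. Hsph1 (chr5:149614287-149636376) was highest in proximal tubule-like cells at 74.6 CPM and lowest in monocyte-like cells at 19.8 CPM. The 4 inducible members thus did not rank the classes alike.

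Hspa8, the constitutive HSP70, ranged over the 8 classes from 960 to 1969 CPM in the vehicle library, and was lower in 2 classes outside them, at 676 CPM in collecting duct-like and 834 CPM in intercalated-like cells. Hsp90ab1, the constitutive HSP90, ranged from 1196 to 1959 CPM and Hsp90aa1, its partly inducible relative, from 511 CPM in dendritic-like to 928 CPM in proximal tubule-like cells. Their sum differed by no more than 1.39-fold between any 2 classes of that library.

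Hspb1 (chr5:135887919-135889563), a small heat shock protein that holds unfolded proteins and binds actin, was highest among the 8 classes in loop of Henle-like cells of every library. Loop of Henle-like cells held 170, 206, 239 and 275 CPM, and distal convoluted tubule-like cells 72.1, 65.0, 49.9 and 11.4 CPM. Macrophage-like cells held 17.8, 4.19, 4.68 and 12.9 CPM, and with vehicle and ruxolitinib their intervals overlapped those of proximal tubule-like cells (24.8 and 17.4 CPM). Monocyte-like and T-like cells held between 0.831 and 3.55 CPM in every library, and natural killer-like cells had no Hspb1 UMI in the vehicle and panobinostat libraries, for which the exact intervals reach 10.3 and 7.41 CPM. After cells were thinned to 2500 UMIs each, 22.0%, 20.3%, 16.97% and 20.7% of loop of Henle-like cells had a Hspb1 UMI, against 0.132%, 0.448%, 0.878% and 0.170% of T-like cells, which serve as the background. Unthinned shares were 39.0%, 32.4%, 42.4% and 38.7% in loop of Henle-like cells and 0.794%, 0.673%, 2.26% and 0.509% in T-like cells, whose median depths were 7595.5 to 12044 and 4191.5 to 7330 UMIs. The highest levels in classes with fewer cells were in endothelial-like cells (551, 375, 465 and 445 CPM from 42 to 67 cells) and urothelial-like cells (638, 679, 703 and 522 CPM from 22 to 44 cells).

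Hspd1 and Hspe1 (chr1:55077835-55088243 and chr1:55088132-55091307) encode the matrix chaperonin HSP60 and its lid HSP10 and share the divergent promoter shown above. Their sum was 1397, 1470, 1258 and 1328 CPM in proximal tubule-like cells, a cell type rich in mitochondria. Of the 8 classes, distal convoluted tubule-like cells were second in every library (640, 771, 557 and 642 CPM) and monocyte-like cells last (429, 432, 351 and 374 CPM).

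With ruxolitinib, the pair Hspa1a and Hspa1b was above vehicle in 7 of 8 classes, with the interval above 1 in 6. It was higher in proximal tubule-like cells, the class with the most cells. Hspa1a was at 47.1, 51.7, 38.3 and 89.3 CPM and Hspa1b at 24.8, 30.1, 23.3 and 57.9 CPM, so that the ruxolitinib library stood clear of the other 3. The ratio of the pair to vehicle was 2.05 [1.93 to 2.18] with ruxolitinib, 1.14 [1.06 to 1.22] with panobinostat and 0.857 [0.793 to 0.925] with givinostat. Hsph1 was at 74.6, 67.3, 70.7 and 96.7 CPM, a ruxolitinib ratio of 1.30 [1.21 to 1.39]. Dnajb1 differed little, with a ruxolitinib ratio of 1.06 [0.963 to 1.16]. At least 1.5-fold higher (on log2 of CPM + 5) were 2 of 10 measured members with ruxolitinib, Hspa1a and Hspa1b, against 1.12% of all genes with at least 20 CPM in either library. No member was that much higher with panobinostat or givinostat (0.325% and 0.527% of genes).

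Hspb1 went the other way in the same cells. Its levels were 24.8, 13.4, 14.0 and 17.4 CPM, with ratios to vehicle of 0.539 [0.467 to 0.621], 0.563 [0.483 to 0.655] and 0.701 [0.613 to 0.802] for panobinostat, givinostat and ruxolitinib. It was the only member at least 1.5-fold lower there, with panobinostat and with givinostat, against 1.14% and 0.807% of genes, and none was with ruxolitinib (0.533% of genes). Immediate early genes such as Fos and Jun, which rise when tissue is dissociated, had summed levels of 7467, 5772, 6256 and 6140 CPM in these cells. Vehicle was thus highest for Hspb1 and for the immediate early sum, whereas ruxolitinib was highest for Hspa1a and Hspa1b.

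**Figure D3:**
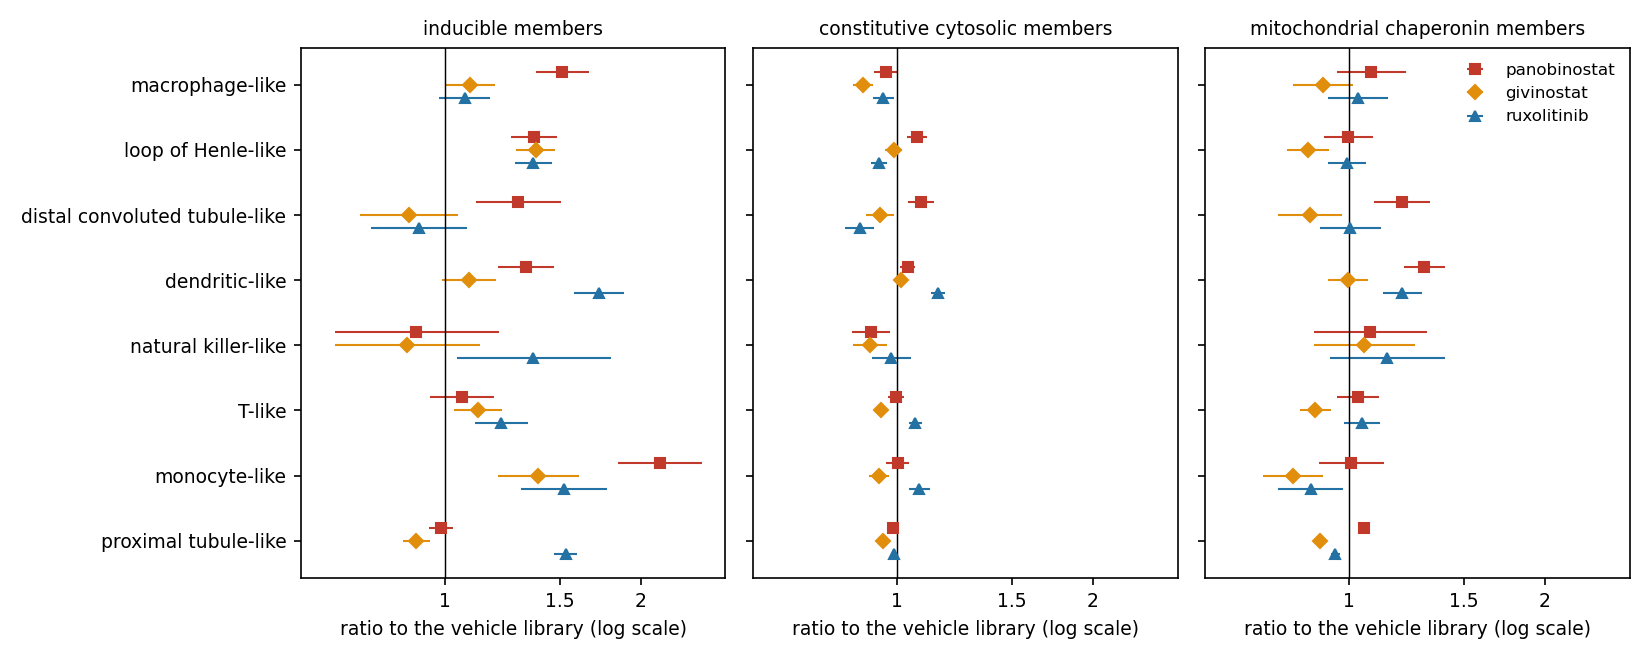
Ratio of each drug library to the vehicle library (log axis) for the summed inducible members, the summed Hspa8, Hsp90aa1 and Hsp90ab1, and the summed Hspd1 and Hspe1, in 8 cell classes. Points are ratios of single libraries and bars exact 95% counting intervals; inducible ratios spread from 0.873 to 2.14, whereas constitutive ratios stay between 0.876 and 1.16.

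Proximal tubule-like cells fell into 8 clusters, and the inducible members differed more between clusters (43.1 to 326 CPM in the vehicle library) than between libraries of a cluster. Cluster 2, led by Osgin1, Pdk4, Adamts1, Angptl4 and Cyr61, held 326, 394, 314 and 643 CPM of the inducible sum. Cluster 0, led by Ttc36 and Acy3, held 43.1, 57.3, 66.2 and 84.5 CPM. In cluster 0, Hspa1a was at 1.68, 0.630, 1.47 and 5.09 CPM, so it was almost silent there in every library. The ruxolitinib ratio of the inducible sum was 1.97 in cluster 2, 1.96 in clusters 0 and 6, 1.46 in cluster 1 and 1.38 in cluster 5, but 1.08 in cluster 4 and 1.01 in cluster 7. Clusters 5 and 7 had Slc5a2, the glucose carrier SGLT2 of the early proximal tubule, among their leading genes, cluster 4 had Car3 and Gatm, and clusters 1 and 6 had Slc7a13 and Slco1a1. Cells of cluster 2 had a median UMI count 2.19 times that of their library. The clustering left the chaperone genes out.

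**Figure D4:**
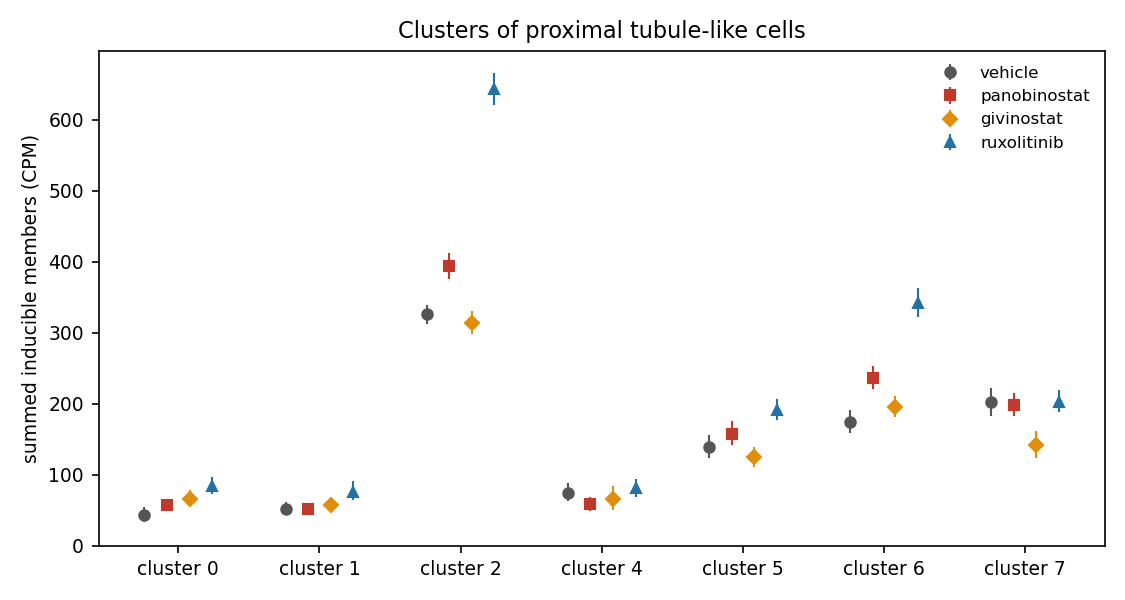
Level (CPM) of the 4 summed inducible members in the 7 clusters of proximal tubule-like cells that had at least 50 cells in each library. Points are single libraries and bars exact 95% Poisson intervals; the ruxolitinib point is highest in every cluster shown, by the widest margin in cluster 2 (643 CPM against 314 to 394).

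With panobinostat, the pair was above vehicle in 8 of 8 classes, with the interval above 1 in 6. The highest of these ratios, 2.78, was in monocyte-like cells. The pair was lowest in the vehicle library in 6 of 8 classes, and that 1 library enters every ratio. In monocyte-like cells Hspa1a was at 91.4, 184, 116 and 124 CPM and Hspa1b at 28.5, 150, 87.9 and 70.4 CPM, lowest in the vehicle library for both genes. The panobinostat ratios were 2.01 [1.61 to 2.53] for Hspa1a and 5.27 [3.66 to 7.83] for Hspa1b, and the Hspa1b ratios for givinostat and ruxolitinib were 3.09 [2.15 to 4.56] and 2.47 [1.69 to 3.73]. At least 1.5-fold higher in these cells were 2 of 9 measured members with panobinostat (2.8% of genes), 1 of 8 with givinostat (4.66% of genes) and 2 of 9 with ruxolitinib (3.99% of genes). The ruxolitinib members were Hspa1b and Hsph1, the latter at 19.8 CPM with vehicle and 37.2 with ruxolitinib. No member was that much lower, against 3.63%, 4.32% and 6.08% of genes. Both monocyte-like clusters had a panobinostat ratio of the inducible sum above 1, namely 1.92 in cluster 11 (Chil3, F13a1) and 2.65 in cluster 15 (Ear2, Treml4). Cluster 15 also had the higher level in every library, at 293, 776, 497 and 468 CPM against 135, 259, 175 and 231 CPM.

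In macrophage-like cells Hspa1a was at 379, 596, 423 and 412 CPM and Hspa1b at 177, 292, 194 and 179 CPM. The panobinostat library was highest for both, with ratios of 1.57 [1.39 to 1.78] and 1.65 [1.38 to 1.98], while the pair's givinostat and ruxolitinib ratios were 1.11 [1.01 to 1.22] and 1.06 [0.962 to 1.17]. These were the 2 of 9 measured members at least 1.5-fold higher with panobinostat, against 6.82% of genes. None was with givinostat or ruxolitinib (5.28% and 6.63% of genes), and none was that much lower (5.47%, 3.17% and 3.14% of genes). Gpx3 in these cells was at 10.7%, 22.7%, 19.1% and 12.8% of its tubule level, which would carry 7.71, 18.6, 11.8 and 18.8 CPM of the pair. Cluster 12 (C1qa, C1qb), with most of these cells, had inducible sums of 716, 1233, 747 and 747 CPM. The proliferating cluster 29 (Mki67) had 489, 355, 649 and 567 CPM, with panobinostat lowest, but it held only 24 or 25 cells per library and is given without a ratio.

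Dendritic-like cells were the class in which most members were past the fold. With ruxolitinib 4 of 9 measured members were at least 1.5-fold higher (Hspa1a, Hspa1b, Hsph1 and Hspd1), against 4.39% of genes. With panobinostat 2 of 9 were (Hspa1a and Hspd1, against 9.08% of genes) and with givinostat none (3.57% of genes). Hspa1a was at 103, 169, 128 and 221 CPM, a ruxolitinib ratio of 2.14 [1.87 to 2.45]. Hspd1 was at 114, 210, 144 and 180 CPM. The tubule gene Gpx3 moved with the panobinostat value, at 8.56%, 25.5%, 7.42% and 12.5% of its level in the tubule, and that share of the tubule's Hspd1 would give 49.5, 150.4, 40.9 and 68.4 CPM. For Hspa1a plus Hspa1b the same estimate gave 6.16, 20.8, 4.57 and 18.4 CPM, beside measured levels of 159, 249, 190 and 327 CPM. The part of tubule RNA in these values was not tested. No member was at least 1.5-fold lower (2.17%, 1.54% and 1.87% of genes).

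In loop of Henle-like cells the vehicle library was lowest for Hspa1a, Hspa1b and Hspb1, and the 3 drug libraries had nearly equal inducible sums. Hspa1b was at 90.8, 185, 236 and 188 CPM, with ratios of 2.03 [1.69 to 2.44], 2.60 [2.24 to 3.03] and 2.07 [1.78 to 2.42]. Hspa1b was the 1 of 10 members past the fold with panobinostat and with givinostat (3.31% and 3.35% of genes). With ruxolitinib there were 2, Hspa1b and Hspb1 (3.28% of genes), and none was that much lower (1.57%, 2.43% and 2.34% of genes). The immediate early sum was lowest in the vehicle library too, at 17794, 20699, 20341 and 20295 CPM. Since 1 vehicle library enters all 3 ratios, these are not 3 separate observations.

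T-like cells held little of the pair, with Hspa1a at 20.02, 22.4, 37.0 and 38.4 CPM and Hspa1b at 26.9, 36.5, 46.5 and 39.6 CPM. The sum's ratio was 1.78 [1.5 to 2.12] with givinostat and 1.66 [1.37 to 2.02] with ruxolitinib. Few cells carried it: with givinostat 10 of 797 thinned cells held 70.5% of the pair's UMIs, against 4 of 756 cells with 43.1% in the vehicle library, and 5 of 589 with 46.0% in the ruxolitinib library. With givinostat Hspa1a and Hspa1b, and with ruxolitinib Hspa1a and Hsph1, were the 2 of 9 members past the fold (2.09% and 1.71% of genes). None was with panobinostat (1.86% of genes), and none was that much lower (2.75%, 0.592% and 1.07% of genes).

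Natural killer-like and distal convoluted tubule-like cells had few cells, and many genes were past the fold there. In natural killer-like cells 1, 1 and 2 of 9 members were higher by the fold, against 11.4%, 11.4% and 15.9% of genes, so that these counts are near the background. Lower by the fold was 1 member, Hsph1, with givinostat (13.6%, 9.91% and 10.4% of genes). The ruxolitinib ratio of the pair, 3.51 [1.98 to 6.64], rested on few cells: 2 of 79 thinned cells carried 86.8% of the pair's UMIs, and the ratio was 0.505 without the 5 highest cells of each library. In distal convoluted tubule-like cells Hspa1a was higher with panobinostat, at 123 CPM in vehicle and 206, against 5.9%, 6.85% and 7.35% of genes higher by the fold with panobinostat, givinostat and ruxolitinib. Lower by the fold were Hsph1 with panobinostat (59.0 to 32.5 CPM, 4% of genes) and Hspb1 with ruxolitinib (72.1 to 11.4 CPM, 5.25% of genes), and none with givinostat (6.84% of genes). In these cells the ruxolitinib library also had the lowest immediate early sum, 4805 CPM against 7610, 8817 and 8137.

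Endothelial-like cells had 42 to 67 cells per library and were compared only after the minimum was lowered to 40 cells, a choice made after seeing the data. The pair was at 436, 685, 683 and 899 CPM, with ruxolitinib at 2.06 [1.76 to 2.43] times vehicle. Dnajb1 stood in contrast, at 173, 91.4, 95.5 and 90.1 CPM, highest in vehicle. Of the 51 ruxolitinib cells, 1 held 74 pair UMIs after thinning to 2500 UMIs, and the variance-to-mean ratio of the pair over these cells was 42.9.

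The constitutive cytosolic members differed little between libraries in the 8 classes. Erythroid-like cells, with 40 cells in the vehicle library, were compared only at the 40-cell minimum and differed more. These cells formed 2 clusters and had median mitochondrial shares of 5.60%, 1.15%, 0.782% and 0.515%. How far the vehicle cells differ in kind was not tested. Their summed ratios were 0.523 [0.490 to 0.558] with panobinostat, 0.581 [0.547 to 0.617] with givinostat and 0.460 [0.434 to 0.489] with ruxolitinib. The summed ratio over 8 classes ran from 0.910 to 1.09 with panobinostat, 0.886 to 1.01 with givinostat and 0.876 to 1.16 with ruxolitinib. Within this narrow range Hsp90ab1 was below vehicle in 8 of 8 classes with givinostat, from 0.722 [0.676 to 0.772] in macrophage-like to 0.987 [0.943 to 1.03] in loop of Henle-like cells, and the interval lay below 1 in 7 of them. Hspa8 was above vehicle in 7 of 8 classes with givinostat and in 7 with ruxolitinib, by at most 1.14-fold and 1.19-fold. In proximal tubule-like cells Hsp90ab1 was at 1230, 1305, 1034 and 1101 CPM. Hsp90ab1 was lower in both the givinostat and ruxolitinib libraries than in both others in 4 of 8 classes, the same division of libraries that Tpm3-rs7 showed. Hsp90aa1 and Hspd1 were also lower in this way in 4 classes each, and Hspd1 was higher in 1. Hspa8 was higher in both of these libraries in 5 classes and lower in 1. Hspa1b was higher in this way in 3 classes and lower in 0, and Dnajb1 higher in 0 and lower in 3. The sum of Hspa1a and Hspa1b was higher in 3 classes, T-like cells among them, and lower in 1. Higher and lower counts were 1 and 1 for Hspa1a, 2 and 0 for Hsph1, 3 and 1 for Hspb1, and 0 and 2 for Hspe1. The part of this division in the ratios of these members was not tested.

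The mitochondrial chaperonins showed the same givinostat library at the low end. The sum was lowest with givinostat in 7 of 8 classes and its ratio to vehicle ran from 0.819 [0.737 to 0.910] in monocyte-like to 1.05 [0.881 to 1.26] in natural killer-like cells. Panobinostat ratios ran from 0.997 to 1.30 and ruxolitinib ratios from 0.872 to 1.21, in each case highest in dendritic-like cells. There the Gpx3 estimate of tubule RNA for Hspe1 was 70.1, 224 and 97.7 CPM with vehicle, panobinostat and ruxolitinib. Measured Hspe1 was 375, 428 and 410 CPM, and the Hspd1 estimate is given above. The part of tubule RNA in these ratios was not tested.

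Counts over members and classes sum up these values. At least 1.5-fold higher were 9 of 75 member and class pairs with panobinostat, 5 of 74 with givinostat and 14 of 75 with ruxolitinib, and at least 1.5-fold lower were 2, 2 and 1. Over all genes tested in the same 8 classes, 5.26%, 4.74% and 5.61% of values were higher by the fold and 4.29%, 3.72% and 3.88% lower, so that the givinostat count and the lower counts are near or under the background. Hspa1a was among the higher ones in 4, 1 and 4 classes and Hspa1b in 4, 4 and 5 classes, Hsph1 in 3 classes with ruxolitinib, and Hspd1 in 1 class each with panobinostat and ruxolitinib. Dnajb1, Hspa8, Hsp90aa1, Hsp90ab1 and Hspe1 were past the fold in none of the 8 classes. At the 40-cell minimum, Dnajb1 was lower by the fold with each drug in endothelial-like cells, and Hspa8 and Hsp90ab1 in erythroid-like cells. Also lower in erythroid-like cells were Dnajb1 with panobinostat and ruxolitinib, Hsp90aa1 with givinostat and ruxolitinib, and Hspe1 with panobinostat and givinostat. Hspd1 was lower there with givinostat. Higher there were Hspa1b with givinostat and Hspa1a with each drug, at 28.3, 38.5 and 41.7 CPM against 4.14 (2 UMIs) with vehicle. In endothelial-like cells Hspa1b was higher with each drug, and Hspa1a and Hsph1 with ruxolitinib. No share over all genes was computed for these classes. The doses of panobinostat and givinostat differ, so these 2 drugs are not compared with each other.

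The share of cells with the inducible pair differed between classes. Thinned to 2500 UMIs, 32.9%, 48.6%, 32.4% and 39.8% of macrophage-like cells had a UMI of Hspa1a or Hspa1b, and the panobinostat interval, 40.1% to 57.1%, overlapped that of vehicle, 25.6% to 40.9%. In proximal tubule-like cells the shares were 7.18%, 7.96%, 6.09% and 10.98%, and the ruxolitinib interval [9.56 to 12.5] lay above that of vehicle [6.03 to 8.47]. Monocyte-like cells had 13.3%, 21.9%, 14.0% and 19.6%, with overlapping intervals. Unthinned, the shares were 45.8%, 62.7%, 55.3% and 57.5% in macrophage-like, 16.5%, 14.1%, 15.5% and 21.9% in proximal tubule-like and 21.3%, 32.7%, 33.1% and 36.6% in monocyte-like cells. No class known to lack Hspa1a and Hspa1b was at hand, so no background share is given. Loop of Henle-like cells had nearly equal thinned shares (41.1%, 38.5%, 41.8% and 43.2%) although the UMI level was lowest in vehicle.

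Cells with at least 5 thinned UMIs of the pair made up 12.9%, 23.9%, 12.9% and 11.3% of macrophage-like cells and held 78.2%, 82.5%, 76.6% and 69.0% of the pair's UMIs there. Among proximal tubule-like cells they were 0.556%, 1.03%, 0.417% and 1.76%, or 10, 26, 5 and 31 cells, with 26.5%, 38.8%, 21.6% and 49.1% of the UMIs. The boundary is arbitrary: 24 of these 72 tubule cells had exactly 5 UMIs and 35 further cells had 4. Because UMIs cluster in cells in this way, the counting intervals of Hspa1a and Hspa1b are too narrow. The variance-to-mean ratio of the pair in thinned proximal tubule-like cells was 4.80, 3.49, 2.95 and 8.09, against 1.55, 1.79, 1.74 and 1.90 for Hsp90ab1.

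**Figure D5:**
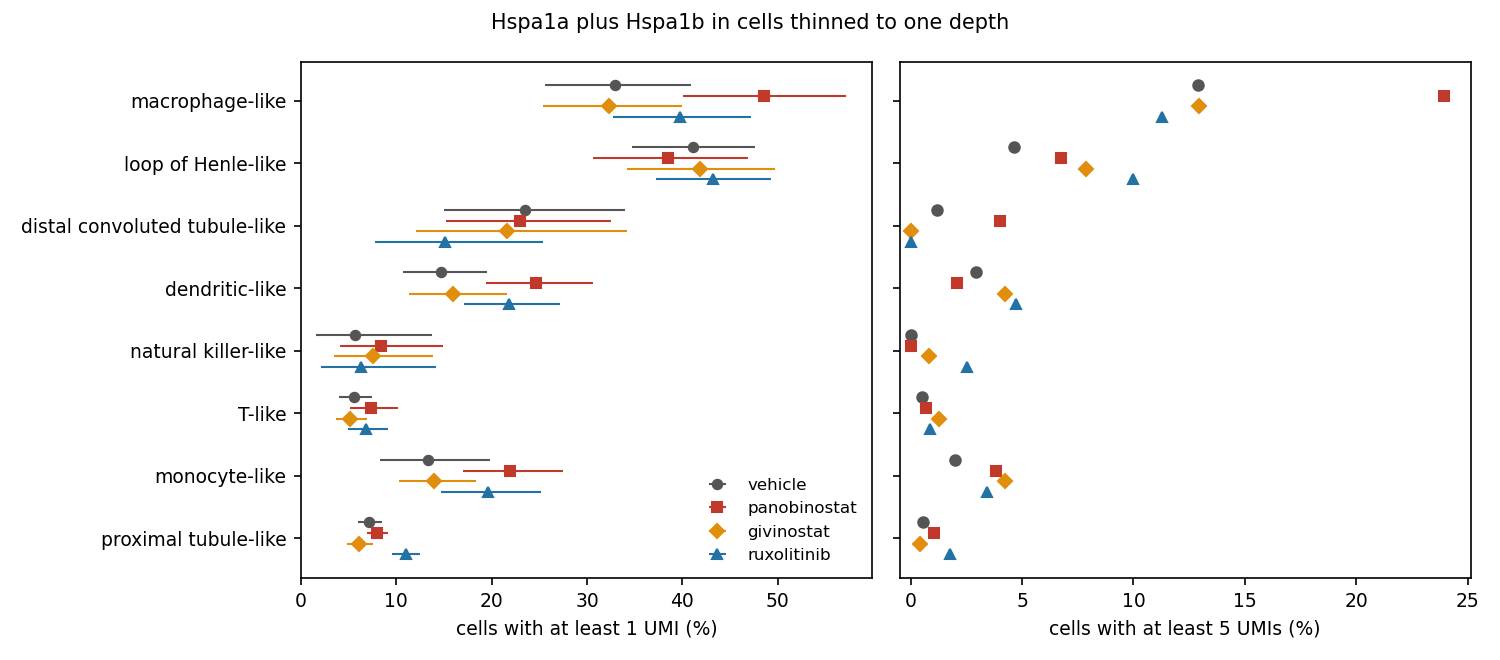
Percent of cells with at least 1 UMI (left, bars are exact 95% Clopper-Pearson intervals) and at least 5 UMIs (right) of Hspa1a plus Hspa1b after each cell was thinned to 2500 UMIs, by class and library. Macrophage-like and loop of Henle-like cells have the highest shares, and in macrophage-like cells the share with at least 5 UMIs is 23.9% with panobinostat against 11.3% to 12.9% in the other libraries.

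The cells with many pair UMIs differed in other members too, and not alike in every class. Over the 4 libraries, the 72 proximal tubule-like cells with at least 5 pair UMIs had a mean of 7.63 Hsp90aa1 UMIs per 2500, against 1.74 in the 6651 cells with none, and 0.639 against 0.142 for Hsph1. Hspb1 was at 0.278 against 0.0268 and Hsp90ab1 at 5.21 against 2.71, while Hspd1 (1.31 against 1.38) and Hspe1 (1.71 against 2.06) were not higher. The immediate early sum was 42.7 against 9.96 UMIs, and the median mitochondrial share was 12.1% against 18.7%. In macrophage-like cells (97 against 391) the ratios were smaller, with Hsp90aa1 at 3.45 against 1.32 and the immediate early sum at 79.3 against 46.2. In loop of Henle-like cells (61 against 487) the immediate early sum was 128 against 20.3 and Hspb1 1.30 against 0.306, while Hsph1 was 0.148 against 0.144 and Hsp90ab1 was lower, 3.07 against 3.72. In dendritic-like cells (35 against 803) Hsp90ab1 was 3.57 against 3.59 and Hsp90aa1 2.11 against 1.46. These are descriptions of cells that share libraries and dissociation, with no test.

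Genes of the surrounding chaperone network were taken from lists chosen by function. The other cytosolic HSP70 machinery (17 genes, including Dnaja1, Bag1 and Dnajb6) had medians of the log2 ratio between -0.12 and 0.12 in every class and drug. The HSP90 co-chaperones (11 genes, including Cdc37, Ptges3 and Fkbp4) had medians between -0.18 and 0.27, and the CCT chaperonin that folds actin and tubulin (7 of 8 subunits measured, including Cct2, Cct5 and Cct4) between -0.26 and 0.15. Past the fold were 2 HSP70 machinery values higher and 5 lower of 122 with panobinostat, 2 and 2 of 121 with givinostat, and 3 and 2 of 120 with ruxolitinib, beside the shares over all genes given above (5.26%, 4.74% and 5.61% higher and 4.29%, 3.72% and 3.88% lower). For the co-chaperones these were 2 and 4, 3 and 1, and 4 and 2 of 80, and for the CCT subunits 0 and 0 of 56 with each drug. Here and for the lists below, list genes were counted from 10 CPM and the shares over all genes from 20 CPM, so their filters differ. Heat shock factors and their regulators, with Ubb and Eef1a1, lay between -0.20 and 0.29, and HSP90 clients and deacetylase, with Hif1a, Nr3c1 and Akt1, between -0.17 and 0.27.

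The endoplasmic reticulum chaperones, which fold secreted proteins and answer to another stress pathway, stood higher with ruxolitinib in some classes. In loop of Henle-like cells 13 of 14 were above vehicle and 3 past the fold (3.28% of genes), with a median of 0.48 against 0.08 over all genes. With givinostat the median there was 0.36 against 0.05, with 5 past the fold (3.35% of genes). In proximal tubule-like cells the ruxolitinib median was 0.26 against 0.09, with 14 of 14 above vehicle and 2 past the fold (1.12% of genes). Hspa5, the HSP70 of that compartment, was at 519, 513, 561 and 912 CPM in proximal tubule-like cells and at 428, 444, 562 and 870 CPM in loop of Henle-like cells, highest with ruxolitinib in both. Hsp90b1 followed with a smaller ruxolitinib ratio, 1.35 [1.31 to 1.39] in proximal tubule-like cells. For Hspa5, givinostat and ruxolitinib stood above vehicle and panobinostat in both classes, the division of libraries that Tpm3-rs7 showed. The part of this division in Hspa5 was not tested. Panobinostat medians of this list lay between -0.10 and 0.14. Over the 8 classes, 1 of 111 values was past the fold higher with panobinostat, 6 of 111 with givinostat and 7 of 112 with ruxolitinib. Lower were 2, 0 and 0. Over all genes 5.26%, 4.74% and 5.61% of values were higher and 4.29%, 3.72% and 3.88% lower. The givinostat and ruxolitinib counts over all classes are thus near the background.

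Of the mitochondrial chaperones and proteases (Hspa9, Grpel1 and Trap1 the most abundant), 7 values were past the fold higher and 2 lower of 63 with panobinostat, 2 and 2 of 63 with givinostat, and 6 and 3 of 64 with ruxolitinib. Over all genes with at least 20 CPM in the 8 classes, 5.26%, 4.74% and 5.61% of values were higher and 4.29%, 3.72% and 3.88% lower. Natural killer-like cells, in which 11.4%, 11.4% and 15.9% of all genes were higher by the fold, gave 2, 2 and 5 of the higher values. Other small heat shock proteins (Cryab, Hspb11 and Hspb8) gave 12 to 17 values per drug. Past the fold were 6 higher and 0 lower of 17 with panobinostat. These counts were 1 and 2 of 12 with givinostat and 4 and 0 of 14 with ruxolitinib, beside the same shares over all genes. Cryab was at 197, 198, 102 and 199 CPM in loop of Henle-like cells, a givinostat ratio of 0.518 [0.444 to 0.602]. Hspb1, in contrast, was 1.40 times [1.24 to 1.59] vehicle there with givinostat. Immediate early genes in proximal tubule-like cells had medians of -0.49, -0.28 and -0.31 for panobinostat, givinostat and ruxolitinib. Of their 14 measured genes, 0, 1 and 0 were above vehicle.

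Over 46 class and library sums of 13 classes, the gene whose log2 level was most like that of the summed inducible members was Egr1, an immediate early transcription factor (Pearson r = 0.866, among 10507 genes). Among the next were Mmp14 (0.802), Tmx4 (0.800), Pdlim7 (0.799), Pla2g4a (0.794), Fos (0.790) and Rtn4 (0.789). Egr1 was at 1172, 1050, 1366 and 1154 CPM in loop of Henle-like, 792, 886, 777 and 848 CPM in macrophage-like and 123, 89.0, 145 and 101 CPM in proximal tubule-like cells. The other members were less alike, with r of 0.599 for Hspb1 and -0.172 for Hspe1. With each class mean subtracted, so that only differences between libraries remained, the leading genes were Dync1li2 (0.690), Tle1 (0.682), Cmpk1 (0.638), Daam1 (0.624), Ubr1 (0.620), Tsn (0.602), Mrps35 (0.601) and Tmpo (0.600), with no immediate early gene among these 8. The points share 4 libraries and their depth, so these values are descriptions.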

How the data were processed

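Droplet 3′ single-cell libraries, 1 per group, were deposited by the authors as a matrix of raw UMI counts (genes by cells, not normalized), and Cell Ranger 3.0.1 and mm10 are named per the submitters' processing notes. Cell names end in a library name; 3 name a drug, and the remaining one was taken as vehicle, the only group left. Cells with at least 200 genes, 500 UMIs and under 50% mitochondrial UMIs were kept (226 of 16003 left out; depth 36861583 to 45075309 UMIs per library). Kept cells had at least 2920 UMIs and at most 39.98% mitochondrial UMIs. Counts were scaled to 10000, and 2000 variable genes without the chaperones, 30 components and 15 neighbours entered Leiden clustering (resolution 1.0; scanpy 1.11.5, leidenalg 0.10.2, Python 3.11.15). Clusters were named from marker lists. Scrublet called 0.0254%, 0.0682%, 2.30% and 0.302% of cells, which was taken as not having worked, and no cell was removed. Leiden cluster 28 stayed unnamed.

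Counts were summed per class and library, and classes with 50 or more cells in both libraries were compared. Levels have exact Poisson, ratios conditional binomial and shares Clopper-Pearson intervals. A member or gene was past the fold at 1.5 on log2(CPM + 5), among genes with at least 20 CPM in either library. List medians and list counts used genes with at least 10 CPM. Coordinates are GENCODE vM21, promoters RefSeq windows. The members and gene lists were chosen with earlier results of these data known. Named genes are the members, the 3 most abundant genes of each list and the 8 most correlated genes, with mitochondrially encoded, cytosolic ribosomal protein and predicted genes left out. Some genes that this rule names are not reported here. Genes that lead clusters, and Gpx3 and Tpm3-rs7, were named after their values were seen. The ratio intervals were tested only on simulated Poisson counts, the kind of counts they assume. That test cannot show how they hold for Hspa1a and Hspa1b, whose UMIs cluster in cells. Other settings tried were a cell filter of 500 genes, 1000 UMIs and 20% mitochondrial UMIs (the stricter filter), resolutions 0.5 and 1.5, chaperones kept in the clustering, classes cell by cell, TMM totals (edgeR 4.0.16, R 4.3.3), means within clusters, totals without mitochondrial genes, folds of 1.25 and 2, gene filters of 10 and 50 CPM, and list pseudocounts of 1 and 20 CPM. After seeing the data, 2 more were added: leaving out the 5 highest cells of each class and library, and a minimum of 40 cells.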

Additional observations from a re-analysis of the deposited data

Results flagged for a closer look

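Hspb1 with ruxolitinib went in opposite directions in 2 neighbouring nephron segments: the ratio to vehicle was 1.61 [1.44 to 1.81] in loop of Henle-like cells and 0.158 [0.0733 to 0.303] in distal convoluted tubule-like cells. The difference between the segments was not tested, since each group has 1 library. In the distal convoluted tubule-like cells of the vehicle library, 8.24% of 85 thinned cells had a Hspb1 UMI, with a variance-to-mean ratio of 7.36, against 2.74% of 73 cells with ruxolitinib.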

How the results depend on the processing

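The summed inducible members kept their side of 1 under every setting run for ruxolitinib in proximal tubule-like cells (1.41 to 1.61), panobinostat in monocyte-like cells (1.63 to 2.22) and macrophage-like cells (1.47 to 2.05), and ruxolitinib in dendritic-like cells (1.60 to 1.75). In natural killer-like cells ruxolitinib ran from 0.858 to 1.73. The ratio moved beyond its counting interval in these cases. With the stricter cell filter it was 1.24 in dendritic-like cells with givinostat, 1.19 and 1.21 in loop of Henle-like cells with givinostat and ruxolitinib, 2.05 and 1.23 in macrophage-like cells with panobinostat and givinostat, and 1.41 in proximal tubule-like cells with ruxolitinib. With classes given cell by cell it was 1.23, 0.822 and 1.14 with givinostat in T-like, dendritic-like and natural killer-like cells, 1.25001, 1.63 and 1.04 with panobinostat in loop of Henle-like, monocyte-like and proximal tubule-like cells, and 1.23, 1.28 and 1.61 with ruxolitinib in macrophage-like, monocyte-like and proximal tubule-like cells. TMM totals gave 0.846 with givinostat and 1.41 with ruxolitinib in proximal tubule-like cells, means within clusters gave 0.997 with givinostat and 1.15 with panobinostat there, and resolution 0.5 gave 1.00 in macrophage-like cells with givinostat. Without the 5 highest cells of each library, a setting chosen after seeing the data, it was 1.07 and 1.10 with panobinostat in distal convoluted tubule-like and loop of Henle-like cells, and 1.87 and 0.858 with ruxolitinib in monocyte-like and natural killer-like cells. The cause was not tested.

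Some single members crossed 1. Without those 5 cells, Hspa1b with givinostat was 0.968 in intercalated-like and 0.345 in natural killer-like cells, Dnajb1 with ruxolitinib was 1.03 in intercalated-like cells, and Hspa1a, Hspa1b and their sum with ruxolitinib were 0.809, 0.202 and 0.505 in natural killer-like cells. Hspb1 in macrophage-like cells was 2.78 and 2.81 with panobinostat and givinostat under the stricter filter, 1.42 and 1.253 at resolution 0.5, and 1.13 with givinostat cell by cell. Cell by cell, Hspb1 in dendritic-like cells was 0.891 with givinostat and 0.768 with ruxolitinib. These Hspb1 sums were under 20 CPM.

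Counts of member and class pairs depended on the fold. The share of all genes past the fold was computed only at 1.5-fold and 20 CPM with the main classes. The counts in this paragraph therefore have no background beside them. At the lower of the folds tried they were 16 higher with panobinostat, 9 higher and 9 lower with givinostat and 4 lower with ruxolitinib; at 2-fold, 1 higher and 0 lower with panobinostat, 3 higher and 0 lower with givinostat and 6 higher with ruxolitinib. With genes of at least 50 CPM, 1 was lower with panobinostat, and 3 were higher and 1 lower with givinostat. The lower counts were 1, 1 and 0 (panobinostat, givinostat, ruxolitinib) with the stricter filter, at resolution 0.5 and cell by cell, 3 with ruxolitinib at resolution 1.5, and 1 with givinostat without the 5 highest cells. Keeping chaperones in the clustering, or leaving mitochondrial genes out of the totals, moved 0 of 30 sums and counts. The stricter filter and resolution 0.5 gave no value for distal convoluted tubule-like cells, and means within clusters gave one only for T-like, monocyte-like, proximal tubule-like and, for some drugs, dendritic-like cells. No paired analysis was possible because each group has 1 library. Depth limits Hspb1 in leukocytes and Hspa1a, Hspa1b and Hsph1 in natural killer-like cells.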
